A study of Mus musculus with 9 samples.

Results

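Cdh1, Cdh2, Cdh3, Ctnna1, Ctnnb1, Ctnnd1, Epcam and Vim were followed across mouse tumour cells recovered from lung. They are 8 genes chosen from 24012 in the expression table, and they encode classical cadherins, catenins, the surface protein Epcam and vimentin. Other cadherins and catenins in the table are not among the 8 and are counted further below. The cells came from pancreatic ductal adenocarcinoma (PDAC) and were taken from the lungs of mice injected through the tail vein. RNA was measured by sequencing of full-length cDNA in 9 libraries, 3 in each of 3 groups. DTC cells were sorted on GFP and are labelled 5 days. mCherryHigh and mCherryLow cells were sorted on GFP and on a high or a low signal of a Gstt1-mCherry reporter, and are labelled 6 weeks. All 3 groups carry the same genotype on their labels, which includes SIRT6F/F, p48-Cre and p53F/+. The p48 (Ptf1a) promoter drives Cre in the pancreatic lineage, so the floxed alleles were targeted there and not in the host lung. The labels do not say how many mice or cell lines the libraries of a group came from, so each p-value below measures the spread between libraries, which may be technical. The design sets DTC and mCherryHigh cells against mCherryLow cells, and DTC was in addition compared with mCherryHigh.

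Classical cadherins are membrane proteins that bind cadherins of the same kind on the neighbouring cell. Inside the cell, beta-catenin (Ctnnb1) and p120-catenin (Ctnnd1) bind the cadherin tail, and alpha-catenin (Ctnna1) ties the complex to actin. Free beta-catenin also enters the nucleus, where it works with TCF factors as the end point of Wnt signalling. E-cadherin (Cdh1) and Epcam are the usual markers of epithelial cells, and N-cadherin (Cdh2) and the filament protein vimentin (Vim) are the usual markers of mesenchymal cells. Carcinomas of the pancreas are known to carry both kinds of marker to varying degrees.

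The 250 bases before the transcription start are shown for Epcam, as the epithelial marker, for Vim, as the mesenchymal marker, and for Ctnnb1, the gene whose level differed between DTC and both other groups. The sequences are RefSeq promoters of the mouse build GRCm38, on the plus strand, written 5′ to 3′. Promoters of 4 of the 8 genes were searched. Capitals mark matches, on either strand, to the motifs searched: the E-box CAGGTG or CACCTG, the CCAAT box (CCAAT or ATTGG), the GC box GGGCGG or CCGCCC, the TCF core CTTTGA or TCAAAG, and TATAAA or TTTATA. Ctnnb1 has 2 starts among the promoters searched and the first is shown.
Epcam promoter (chr17:87635729-87635978): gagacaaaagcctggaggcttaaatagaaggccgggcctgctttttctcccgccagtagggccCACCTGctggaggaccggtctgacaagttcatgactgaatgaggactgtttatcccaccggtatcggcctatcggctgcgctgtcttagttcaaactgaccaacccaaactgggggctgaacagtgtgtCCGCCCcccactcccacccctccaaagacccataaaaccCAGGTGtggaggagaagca
Vim promoter (chr2:13574061-13574310): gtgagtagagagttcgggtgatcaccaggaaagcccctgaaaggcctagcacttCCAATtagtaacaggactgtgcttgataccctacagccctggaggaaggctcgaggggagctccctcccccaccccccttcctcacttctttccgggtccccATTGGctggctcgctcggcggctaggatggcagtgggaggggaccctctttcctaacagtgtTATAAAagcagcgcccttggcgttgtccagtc
Ctnnb1 promoter (chr9:120933150-120933399): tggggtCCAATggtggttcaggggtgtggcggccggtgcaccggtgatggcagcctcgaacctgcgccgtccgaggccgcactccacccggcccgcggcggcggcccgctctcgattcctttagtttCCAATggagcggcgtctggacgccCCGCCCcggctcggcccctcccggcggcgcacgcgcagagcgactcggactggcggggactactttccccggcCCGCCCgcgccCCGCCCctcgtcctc
The Epcam window holds 2 E-boxes, 187 and 19 bases upstream of the start. E-boxes of this form are known binding sequences of the Snail and Zeb repressors. Of 32851 RefSeq promoter windows of the same length, 17.2% hold at least 1 such E-box and 2.06% hold 2 or more. The Epcam window also has a GC box 58 bases upstream. The Vim window has CCAAT boxes 196 and 94 bases upstream and a TATAAA 32 bases upstream, motifs found in 33.8% and 12.4% of windows. The Ctnnb1 window has CCAAT boxes 244 and 123 bases upstream and GC boxes at 99, 26 and 15 bases, and 32.7% of windows hold a GC box. The TCF core, present in 13.8% of windows, matched none of the 3. These matches describe letters only.

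Before the 8 genes are compared, the libraries need a description. Library totals ran from 923988 to 2052623 reads in DTC, from 643748 to 9800173 in mCherryHigh and from 2051266 to 11861241 in mCherryLow, so 3 reads correspond to between 0.253 and 4.66 CPM (counts of a gene scaled to a common library total). The shallowest library was mCherryHigh 1. A single gene, Gm10800, held 7.07% of DTC 1 and 9.14% of DTC 3, while the top gene of each other library held 0.632% to 1.64%. Genes with a read numbered 20555 to 21038 in DTC, 18666 to 19505 in mCherryHigh and 18562 to 20753 in mCherryLow. The part of these library differences in the values below was not tested. Summed markers of macrophages, endothelium and lung epithelium were higher in DTC, and DTC 3 stood apart from the other two. The summed level of 9 ductal markers was 5306, 6036 and 419 CPM in DTC 1, 2 and 3, against 2132 to 6110 CPM in mCherryHigh and 1725 to 2534 CPM in mCherryLow. Krt8, a keratin of simple epithelia, was at 1429, 1878 and 76.8 CPM in DTC 1, 2 and 3. Krt18 was at 3014, 3046 and 169 CPM there, so keratins held most of the sum in DTC 1 and 2. Cldn4, of the same list, was at 0.761, 0 and 0 CPM in DTC, against 40.6 to 65.2 CPM in mCherryHigh. Of the 9 markers, 3 were higher and 6 lower in DTC than in mCherryHigh, and 6 higher and 3 lower than in mCherryLow. The sum of 13 macrophage and leukocyte markers was 4087, 3427 and 7783 CPM in DTC, against 301 to 803 CPM in mCherryHigh, where C1qb was at 0, and 452 to 686 CPM in mCherryLow. The sum of 8 endothelial markers was 208 to 409 CPM in DTC, 34.9 to 54.4 CPM in mCherryHigh and 16.1 to 33.9 CPM in mCherryLow. The sum of 10 markers of lung epithelium was 196 to 549 CPM in DTC, 41.9 to 85.2 CPM in mCherryHigh, where Sftpd and Lamp3 were at 0, and 26.3 to 61.5 CPM in mCherryLow. The sum of 4 markers of red blood cells was 70.8 to 208 CPM in DTC, 4.08 to 32.6 CPM in mCherryHigh and 4.04 to 17.1 CPM in mCherryLow. Lymphocyte markers, given below, also summed higher in every DTC library. The fibroblast, neutrophil and mesothelial sums overlapped between the groups. The sum of 8 fibroblast markers, a cell type that expresses Vim and Cdh2, was 88.7 to 256 CPM in DTC, 104 to 144 CPM in mCherryHigh and 66.8 to 118 CPM in mCherryLow. The sum of 6 neutrophil markers was 38.1 to 134 CPM in DTC, 10.9 to 121 CPM in mCherryHigh and 10.7 to 108 CPM in mCherryLow. The sample descriptions carry codes, whose meaning is not stated. Only DTC libraries have codes of series 14, so a series effect, the time point, the gate of the sort and the DTC state itself cannot be told apart. mCherryHigh 1 and mCherryLow 1 share series 10, mCherryHigh 5 shares series 12 with mCherryLow 5 and 6, and mCherryHigh 6 is alone in series 13.

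**Figure D1:**
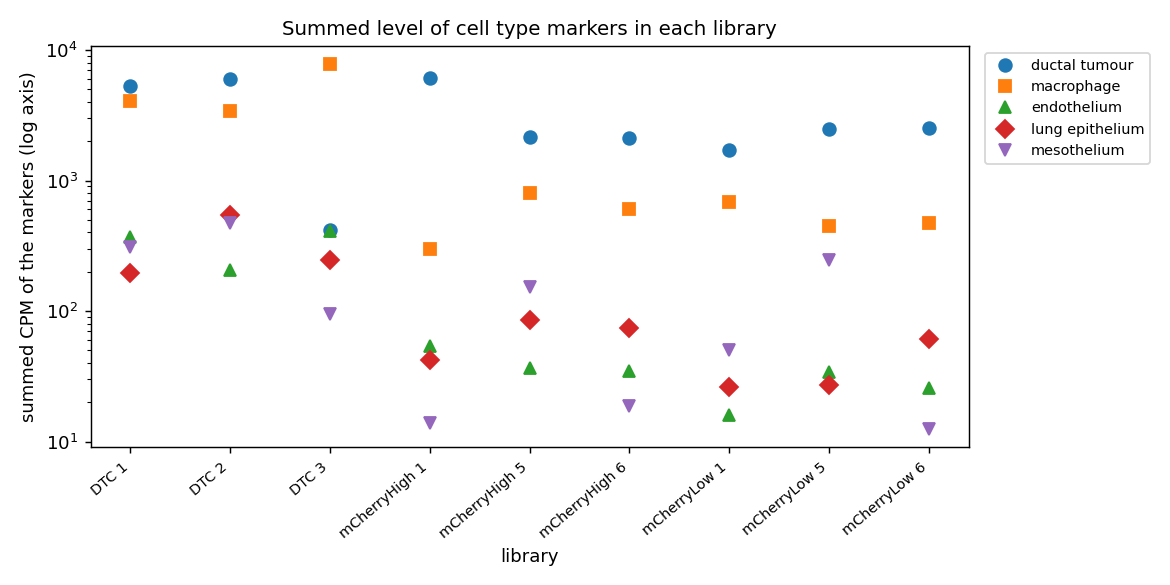
Summed CPM of marker genes of 5 cell types (log axis) in each of the 9 libraries. Macrophage, endothelial and lung epithelial sums are higher in the 3 DTC libraries than in the other 6, and the ductal sum of DTC 3, 419 CPM, is the lowest of all libraries.

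All 8 genes passed the filter on low values in every comparison. Per kb of transcript, Vim had the highest level, at 679 CPM per kb in DTC, 563 in mCherryHigh and 863 in mCherryLow. Ctnnb1 averaged 74.4, 243 and 170 CPM per kb in the same order of groups, and Ctnna1 55.6, 108 and 162 CPM per kb. The other catenin and the main cadherins lay lower and close together, with Cdh2 at 16.2, 23.7 and 27.8 CPM per kb, Ctnnd1 at 13.4, 28.6 and 19.1, and Cdh1 at 11.7, 25.2 and 17.4. Epcam was at 6.85, 15.7 and 10.0 CPM per kb, and Cdh3, P-cadherin, was at the bottom at 1.36, 0.360 and 0.340 CPM per kb. Cdh2, Ctnnd1 and Cdh1 overlapped in each group. Ctnnb1 is counted with less certainty, since 81.4% of the 50-base windows of its transcripts are unique and the rest occur in transcripts annotated to Ulk4. For Ctnnd1 only 30.5% are unique, the others being shared with the annotated gene Gm28635.

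**Figure D2:**
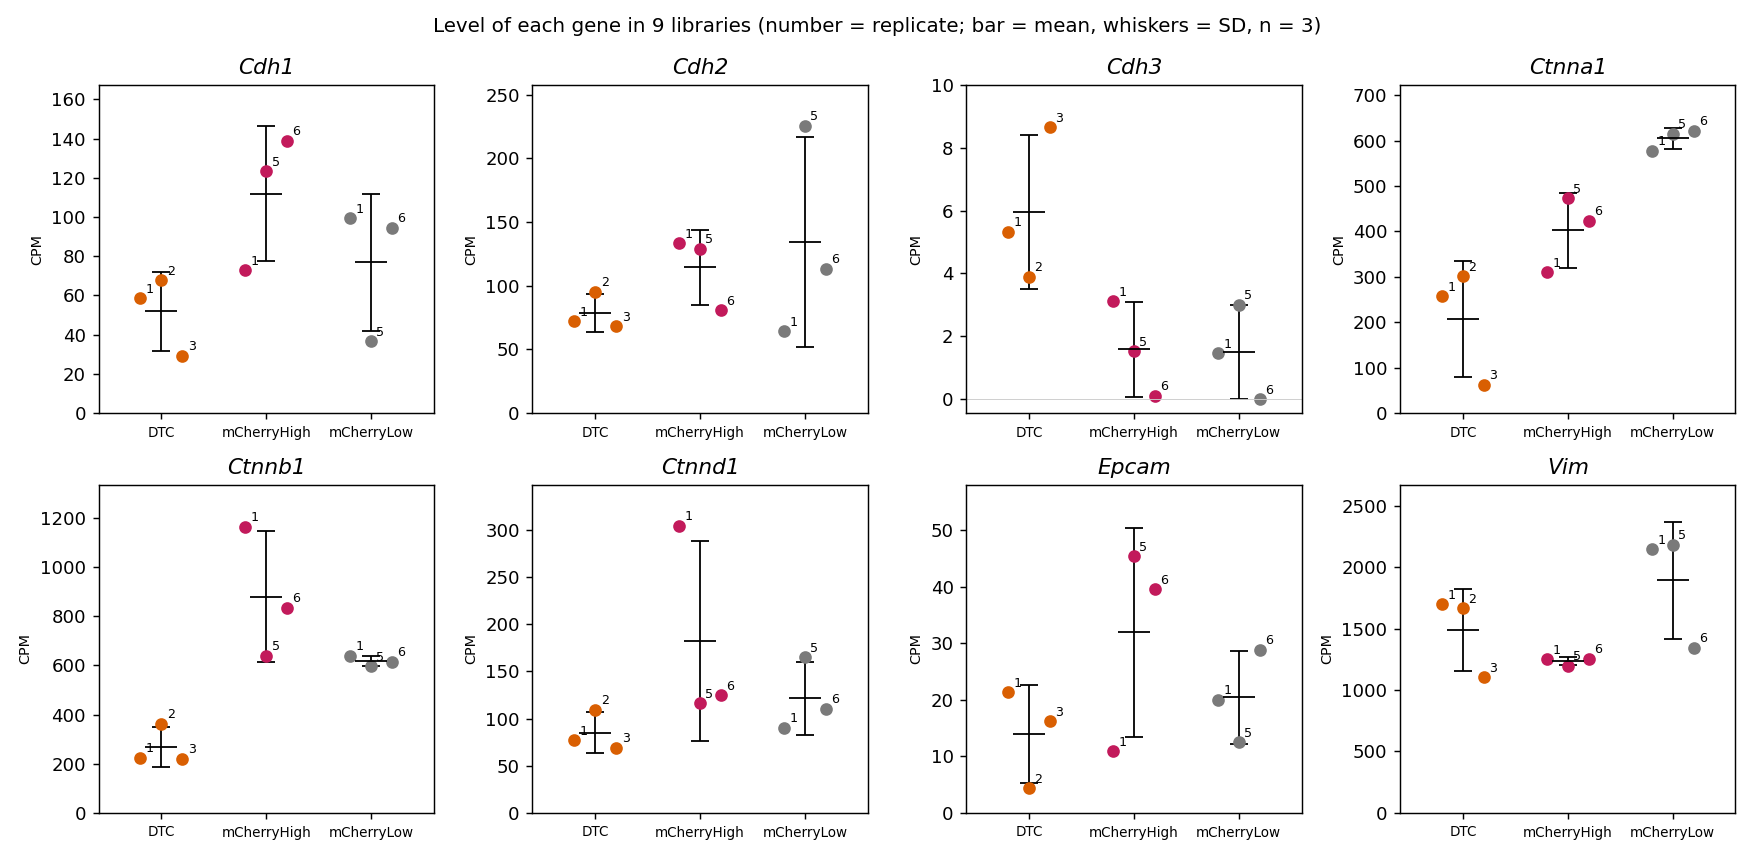
Level in CPM of each of the 8 genes in the 3 libraries of DTC, mCherryHigh and mCherryLow. Points are libraries numbered by replicate, the bar is the mean and the whiskers are the SD (n = 3). Ctnnb1 in DTC lies between 221 and 363 CPM, under all 6 other libraries.

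The cadherins did not pass the test in any comparison. Cdh1, the cadherin of epithelial junctions, was at 58.6, 67.7 and 29.2 CPM in DTC 1, 2 and 3, at 73.0, 123 and 139 CPM in mCherryHigh 1, 5 and 6, and at 99.5, 36.7 and 94.6 CPM in mCherryLow 1, 5 and 6. Every DTC library lay under every mCherryHigh library, while mCherryLow spanned both. The means were 51.8 ± 20.1 CPM in DTC, 112 ± 34.5 CPM in mCherryHigh and 76.9 ± 34.9 CPM in mCherryLow (SD, n = 3 each). On the log2(CPM + 1) scale, used for all differences below, DTC minus mCherryHigh was -1.13 (SE 0.44, limma adjusted p = 0.0749). That value became -0.77 without DTC 3. It passed in 6 of 19 alternatives: in limma without mCherryHigh 1, with median-of-ratios or TMM scaling and with array weights, and in edgeR and DESeq2 on the recovered reads. Over these its adjusted p ran from 0.0146 with array weights to 0.0444 with median-of-ratios scaling, and its size reached -1.53 in edgeR. DTC minus mCherryLow was -0.52 (SE 0.49, limma adjusted p = 0.419), with a 95% interval of -1.59 to 0.56. In a bulk sample, fewer cells of a type and less RNA per cell cannot be told apart, and the ductal marker sum of DTC 3 was the lowest as well. Its part in these values was not tested beyond leaving that library out.

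Cdh2, the N-cadherin of neural and mesenchymal cells, was at 72.3, 95.5 and 68.2 CPM in DTC, at 134, 129 and 80.8 CPM in mCherryHigh and at 64.4, 226 and 113 CPM in mCherryLow. The groups overlapped throughout, and mCherryLow 5 was the highest library. The limma differences were -0.52 for DTC minus mCherryHigh (SE 0.37, adjusted p = 0.316) and -0.60 for DTC minus mCherryLow (SE 0.45, adjusted p = 0.308). edgeR on the recovered reads called Cdh2 lower in DTC than in mCherryLow, at -1.31 (adjusted p = 0.0427).

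Cdh3, the P-cadherin of basal and placental epithelia, was seen in few reads. DTC libraries had 7, 8 and 8 reads, or 5.33, 3.90 and 8.66 CPM, against 3.11, 1.53 and 0.102 CPM in mCherryHigh and 1.46, 3.00 and 0 CPM in mCherryLow. Every DTC library was above every other library. In DTC 2, the lowest of them, the 95% exact Poisson interval ran from 1.68 to 7.68 CPM, which covers counting error only and includes the highest mCherryHigh and mCherryLow values. The limma difference was 1.64 for DTC minus mCherryLow (SE 0.63, adjusted p = 0.0534) and 1.57 for DTC minus mCherryHigh (SE 0.70, adjusted p = 0.112), and both turned to -0.16 and -0.02 after quantile normalization. The first passed in limma without mCherryLow 5 (2.09, adjusted p = 0.0381), without the variance trend (adjusted p = 0.0447) and with array weights (adjusted p = 0.0282). The second passed in limma without mCherryHigh 1 (2.00, adjusted p = 0.0432) and with array weights (1.83, adjusted p = 0.0185).

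The catenins carried the differences that passed the test. Ctnnb1 and Ctnna1 fell in DTC relative to mCherryLow, and Ctnnb1 fell in DTC relative to mCherryHigh. Both comparisons use the same DTC libraries, so the values stand side by side and not as independent results. Against mCherryLow, limma called 2 of the 8 genes, both lower, and 43.1% of all 18701 genes tested, 34.2% higher and 8.87% lower. Against mCherryHigh it called 1 of the 8, lower, and 30.2% of 19700 genes, 23% higher and 7.19% lower. The groups did not overlap for 1 member higher and 2 lower against mCherryLow, beside 53.2% of all genes, 39% higher and 14.2% lower. Against mCherryHigh this held for 1 member higher and 4 lower, beside 44.7% of all genes, 31.4% higher and 13.2% lower. Among genes averaging at least 50 CPM over the 6 libraries, 22.2% were called lower against mCherryLow and 18.2% against mCherryHigh, shares close to those of the 8 genes.

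Ctnnb1, which encodes beta-catenin, was at 225, 363 and 221 CPM in DTC, at 1165, 639 and 835 CPM in mCherryHigh and at 640.1, 597 and 616 CPM in mCherryLow. The DTC values lay under all others, and the mCherryLow libraries differed little from each other. Means were 269.6 ± 81.3 CPM in DTC, 879.8 ± 266 CPM in mCherryHigh and 617 ± 21.8 CPM in mCherryLow (SD, n = 3 each). DTC minus mCherryHigh was -1.70 (SE 0.36, limma adjusted p = 0.00718), which is 3.25-fold lower, and -2.25 relative to the median of all genes tested. That median was 0.55, while genes averaging at least 50 CPM over the 6 libraries, as Ctnnb1 did, had a median of -0.37. The Ctnnb1 call held in each of 19 alternatives, with adjusted p from 1.49e-05 to 0.0451. DTC minus mCherryLow was -1.23 (SE 0.33, limma adjusted p = 0.0104), which is 2.35-fold lower, and -1.82 relative to the median of all genes. That median was 0.59, while genes averaging at least 50 CPM over these 6 libraries had a median of -0.47. Ctnnb1 against mCherryLow did not pass in limma after quantile normalization (-0.66, adjusted p = 0.0875) or without DTC 1 (-1.12, adjusted p = 0.0544), among 19 alternatives with adjusted p down to 8.26e-05. Without DTC 3, the library with the lowest ductal marker sum, limma gave -1.58 against mCherryHigh (adjusted p = 0.0267) and -1.11 against mCherryLow (adjusted p = 0.0157).

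Ctnna1, which encodes the alpha-catenin that links the junction to actin, was at 258, 302 and 62.8 CPM in DTC, at 311, 473 and 424 CPM in mCherryHigh and at 578, 615 and 622 CPM in mCherryLow. The 3 groups did not overlap, and DTC 3 was far below the other DTC libraries. Means were 208 ± 127, 402 ± 83.1 and 605 ± 23.5 CPM in DTC, mCherryHigh and mCherryLow (SD, n = 3 each). DTC minus mCherryLow was -1.82 (SE 0.51, limma adjusted p = 0.0136), and -2.42 relative to the median of all genes. Genes averaging at least 50 CPM over the 6 libraries, as Ctnna1 did, had a median of -0.47 in this comparison. Leaving out DTC 3 reduced the Ctnna1 difference to -1.11, with a limma adjusted p of 0.00882. Quantile normalization took it to -1.40 with an adjusted p of 0.0632, and the other alternatives kept the call, with adjusted p from 0.00105 to 0.0474. DTC minus mCherryHigh was -1.22 (SE 0.54, limma adjusted p = 0.106) and -0.50 without DTC 3, so that library decided most of its size.

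Ctnnd1, which encodes the p120-catenin that keeps cadherins at the surface, was at 76.9, 109.6 and 69.3 CPM in DTC, at 304, 117 and 125 CPM in mCherryHigh and at 90.2, 165 and 110.3 CPM in mCherryLow. mCherryHigh 1 was far above the rest, and DTC overlapped mCherryLow but not mCherryHigh. The difference was -0.97 for DTC minus mCherryHigh (SE 0.44, limma adjusted p = 0.114) and -0.49 for DTC minus mCherryLow (SE 0.38, limma adjusted p = 0.312). The first passed in 4 of 19 alternatives, with median-of-ratios scaling in limma (-1.15, adjusted p = 0.0498), with TMM scaling in limma (-1.25, adjusted p = 0.0373), and on the recovered reads in edgeR (-1.41, adjusted p = 0.0325) and DESeq2 (-1.24, adjusted p = 0.0310).

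**Figure D3:**
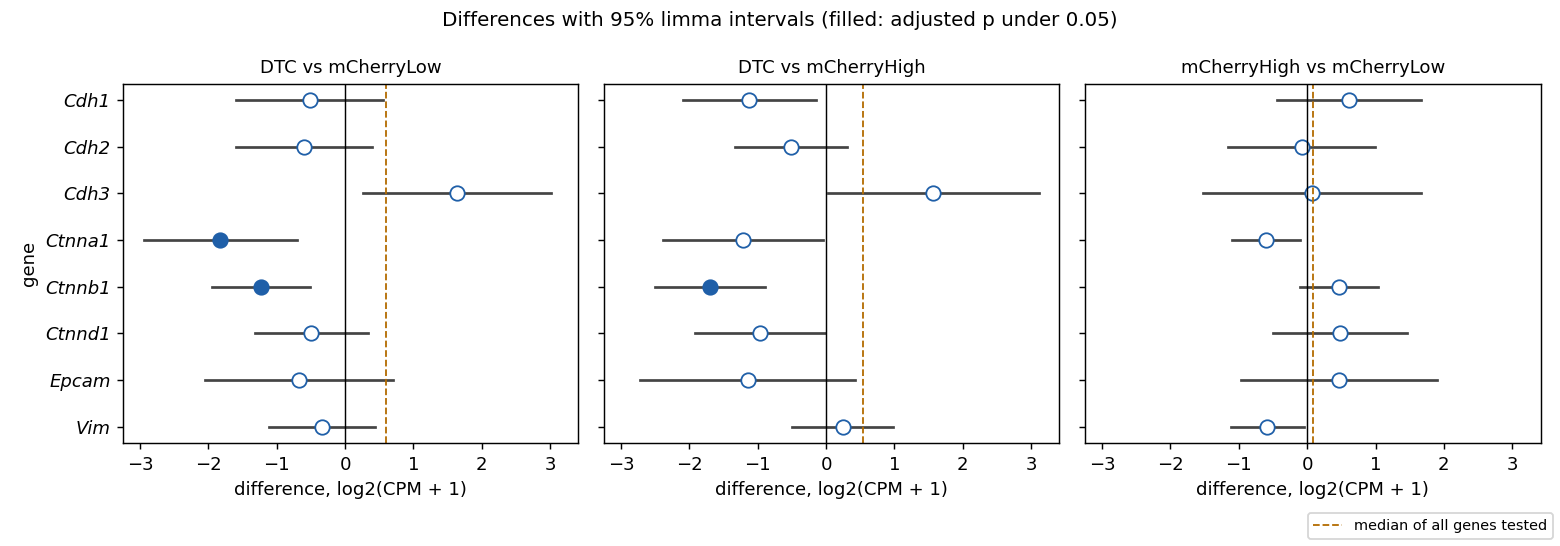
Difference of each gene on the log2(CPM + 1) scale, tested over all genes with limma, for DTC minus mCherryLow, DTC minus mCherryHigh and mCherryHigh minus mCherryLow. Lines are 95% intervals, filled points have an adjusted p under 0.05 and the dashed line is the median of all genes tested. Filled points are Ctnna1 at -1.82 and Ctnnb1 at -1.23 in the first panel and Ctnnb1 at -1.70 in the second.

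Epcam, an adhesion protein of the epithelial surface that is cleaved to release a signalling fragment, was at 21.3, 4.38 and 16.2 CPM in DTC, at 10.9, 45.4 and 39.6 CPM in mCherryHigh and at 20.0, 12.5 and 28.8 CPM in mCherryLow. The lowest library was DTC 2, where the ductal marker sum was high through keratins. Other ductal markers were low there, with Cldn4 at 0, Krt7 at 10.7 and Elf3 at 25.8 CPM, under every mCherryHigh library. DTC 3, with the lowest ductal marker sum, was above mCherryHigh 1 for Epcam. The groups overlapped in every comparison. The value of mCherryHigh 1 rested on 7 reads, with a 95% exact Poisson interval of 4.37 to 22.4 CPM. Means were 13.98 ± 8.69 CPM in DTC, 32.0 ± 18.5 CPM in mCherryHigh and 20.4 ± 8.18 CPM in mCherryLow (SD, n = 3 each). The limma differences were -1.14 for DTC minus mCherryHigh (SE 0.72, adjusted p = 0.249) and -0.68 for DTC minus mCherryLow (SE 0.63, adjusted p = 0.410), and the 95% interval of the first ran from -2.72 to 0.43.

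Vim, the intermediate filament of mesenchymal cells and also of macrophages and endothelium, was at 1697, 1667 and 1105 CPM in DTC, at 1250.5, 1199 and 1254 CPM in mCherryHigh and at 2147, 2185 and 1345 CPM in mCherryLow. The mCherryHigh libraries lay within a narrow range under all mCherryLow libraries, and DTC overlapped both groups. Means were 1489.8 ± 334, 1234 ± 30.8 and 1892 ± 474 CPM in DTC, mCherryHigh and mCherryLow (SD, n = 3 each). DTC 3 had the lowest Vim level of all 9 libraries and the highest macrophage marker sum. The limma difference was 0.24 for DTC minus mCherryHigh (SE 0.34, adjusted p = 0.608) and -0.34 for DTC minus mCherryLow (SE 0.35, adjusted p = 0.464). The sign of the first turned with TMM scaling (-0.04) and in edgeR (-0.12), and that of the second with quantile normalization (0.14).

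Between mCherryHigh and mCherryLow, limma called 0% of 15437 genes, the 8 included. At an unadjusted p under 0.05 there were 1448 genes (9.38%), Ctnna1 and Vim among them, edgeR called 0 and DESeq2 called 132. Ctnna1 was lower in every mCherryHigh than in every mCherryLow library, at -0.61 (SE 0.21, limma adjusted p = 0.488), and so was Vim, at -0.58 (SE 0.23, limma adjusted p = 0.511). The groups did not overlap for 15.9% of genes tested, 10.2% higher and 5.78% lower. Within code series 10, Ctnna1 differed by -0.89 and Vim by -0.78, and within series 12 by -0.39 and -0.52, with 1 mCherryHigh library in each series and so no test.

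The other 6 members had larger unadjusted p-values. Ctnnb1 differed by 0.47 for mCherryHigh minus mCherryLow (SE 0.24, limma adjusted p = 0.590), with 0.86 in series 10 and 0.08 in series 12. For Cdh1 the difference was 0.61 (SE 0.45, limma adjusted p = 0.712), with -0.44 in series 10 and 1.05 in series 12. Epcam differed by 0.47 (SE 0.62, limma adjusted p = 0.873), with -0.82 and 1.21 in the 2 series. Ctnnd1 differed by 0.47 (SE 0.42, limma adjusted p = 0.776), with 1.74 and -0.21, and Cdh2 by -0.08 (SE 0.46, limma adjusted p = 0.979), with 1.04 and -0.31. The signs of these 4 genes were opposite in the 2 series. Cdh3, at 0.07 (SE 0.69, limma adjusted p = 0.987), rested on 18 reads in mCherryHigh and 35 in mCherryLow, and its sign turned with other scalings.

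Ratios within a library do not change with scaling. The ratio of Vim to Cdh1 CPM was 29.0, 24.6 and 37.8 in DTC, 17.1, 9.71 and 9.02 in mCherryHigh and 21.6, 59.5 and 14.2 in mCherryLow. Every DTC ratio was above every mCherryHigh ratio, and mCherryLow held the highest of all, in mCherryLow 5. Per kb of transcript, Cdh1 made up 45.0%, 42.6% and 29.1% of the sum of Cdh1, Cdh2 and Cdh3 in DTC, 36.8%, 50.8% and 65.3% in mCherryHigh and 62.2%, 14.9% and 47.7% in mCherryLow. mCherryLow 5 was thus the library with the least E-cadherin among its cadherins, at 83.9% Cdh2. The ratio of Ctnnb1 to Ctnna1 per kb was 0.897, 1.24 and 3.62 in DTC, 3.86, 1.39 and 2.03 in mCherryHigh and 1.14, 0.999 and 1.02 in mCherryLow. The 3 mCherryLow ratios lay between 0.999 and 1.14, and DTC 3 and mCherryHigh 1 were the highest. The catenins summed to 4.87, 5.53 and 3.91 times the cadherins per kb in DTC, against 10.1, 5.85 and 7.56 times in mCherryHigh and 9.59, 6.40 and 7.90 times in mCherryLow, and the DTC libraries were the lowest 3.

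**Figure D4:**
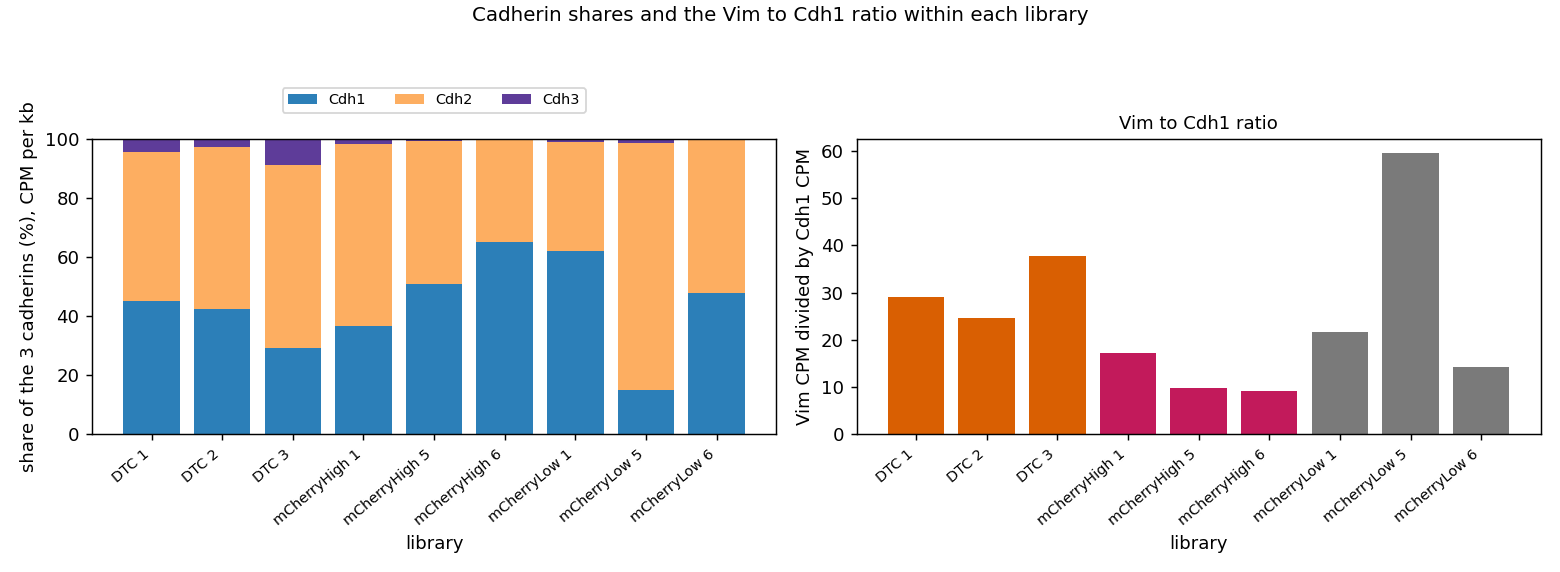
Left, the share of Cdh1, Cdh2 and Cdh3 in their sum per kb of transcript in each library, and right, Vim CPM divided by Cdh1 CPM. mCherryLow 5 has the lowest Cdh1 share, 14.9%, and the highest Vim to Cdh1 ratio, 59.5.

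Likeness of pattern was measured as the mean absolute difference of log2(CPM + 1) over the 9 libraries after centring each gene, among 11468 genes with a mean of at least 10 CPM. The genes nearest to Cdh1 were Padi2 (0.203), Kctd2 (0.221) and Ap1s2 (0.227). Those nearest to Epcam were Cyp4f13 (0.305), Stap2 (0.337) and Sepp1 (0.342). Vim had closer neighbours, Rpp21 (0.0886), Mrpl16 (0.105) and 2700029M09Rik (0.109). A small value means a similar profile over these libraries and no more.

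The wider cadherin and catenin families were counted in the same comparisons. Of 16 other cadherins tested against mCherryLow, 11 rose and 1 fell, with a list median of 1.88 beside 0.59 over all genes tested, of which 34.2% were called higher. Cdh7, a cadherin of the neural crest, averaged 67.4 CPM in DTC and 0.973 CPM in mCherryLow (5.20, SE 0.63, limma adjusted p = 0.000402). Cdh4, the R-cadherin of retina and brain, averaged 62.1 CPM in DTC and 3.56 CPM in mCherryLow (3.71, SE 0.59, limma adjusted p = 0.000795), and Cdh12 and Cdh19 rose by 3.30 and 3.00. Of the 11 cadherins that rose, 10 averaged under 5 CPM in mCherryLow, and of all genes at that level 66.9% were called higher in DTC. Cdh16 was the 1 that fell, to 0.325 CPM in DTC against 2.86 CPM in mCherryLow. Without DTC 3, 9 rose and 0 fell, and with quantile normalization 5 rose and 1 fell. Against mCherryHigh, 8 of 18 rose, led by Cdh7 (4.61), Cdh4 (3.99) and Cdh10 (3.49), beside 23% of all genes called higher, and Cdh6 fell by 1.75. Without DTC 3 those counts were 3 and 0, and with quantile normalization 3 and 2. Of the 8 that rose, 7 averaged under 5 CPM in mCherryHigh, and of all genes at that level 43.3% were called higher in DTC.

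Among 8 other catenins and partners, 4 rose and 1 fell in DTC relative to mCherryLow, beside 34.2% and 8.87% of all genes. Of the 4 that rose, 3 averaged under 5 CPM in mCherryLow, where 66.9% of all genes were called higher, and with quantile normalization 2 rose and 1 fell. Ctnnd2, the delta-catenin of neurons, was at 64.7, 64.8 and 111 CPM in DTC, against 1.46, 4.13 and 1.69 CPM in mCherryLow (4.60, SE 0.54, limma adjusted p = 0.000387). Ctnna3, the alpha-catenin of heart and testis, averaged 44.6 CPM in DTC and 2.80 CPM in mCherryLow, Ctnna2, that of neurons, 13.9 and 0.723 CPM, and Pkp4 69.3 and 19.7 CPM. Ctnnbip1, an inhibitor of beta-catenin binding to TCF, fell by 1.16. Relative to mCherryHigh, Ctnnd2, Ctnna2 and Ctnna3 rose by 4.74, 3.43 and 2.48. Of these 3, 2 averaged under 5 CPM in mCherryHigh, where 43.3% of all genes were called higher. Jup, which encodes gamma-catenin, the desmosomal relative of beta-catenin, was at 113, 124 and 86.6 CPM in DTC, against 322, 254 and 205 CPM in mCherryHigh (-1.26, SE 0.35, limma adjusted p = 0.0200).

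Of 18 junction partners, among them proteins that tie junctions to actin, tested against mCherryLow, 5 fell and 1 rose, with a list median of -0.14. Of all genes 8.87% were called lower and 34.2% higher. Of those averaging at least 50 CPM 22.2% were called lower, a share near that of the list. Zyx, the zyxin of actin attachment sites, was at 57.8, 115 and 63.9 CPM in DTC, against 265, 383 and 492 CPM in mCherryLow (-2.28, SE 0.39, limma adjusted p = 0.00112). Actn4, an actin crosslinker, differed by -2.05, Iqgap1, a scaffold that binds beta-catenin, by -1.44, and Pvrl2, which encodes the adhesion protein nectin-2, by -2.17. Vcl, the vinculin that binds alpha-catenin, fell by 2.22, to 31.8 CPM in DTC against 152 CPM in mCherryLow, where mCherryLow 5 held 327 CPM. DTC 2, at 68.2 CPM, was above mCherryLow 1 and 6, at 67.8 and 61.1 CPM. Vcl was not called without mCherryLow 5 (-1.45, limma adjusted p = 0.121), DTC 1 (-2.04, limma adjusted p = 0.101) or DTC 3 (-1.65, limma adjusted p = 0.136). The list median became 0.19 without DTC 3, with 4 lower and 1 higher. Relative to mCherryHigh, Actn4, Iqgap1, Zyx and Pvrl2 fell, with differences of -1.89, -1.40, -1.78 and -2.06, and 0 of 18 rose. In that comparison 7.19% of all genes were called lower and 23% higher. Among genes averaging at least 50 CPM, 18.2% were called lower, a share near that of the list, and 8.01% higher.

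Of 17 genes that act on cadherins or catenins by cleavage, phosphorylation or transport, 6 fell and 2 rose in DTC relative to mCherryLow, with a list median of -0.82. Of all genes 8.87% were called lower and 34.2% higher, and of those averaging at least 50 CPM 22.2% were called lower. Ncstn, a subunit of the gamma-secretase that cleaves E-cadherin and the Epcam stub, fell, with a difference of -1.93. Adam10, the protease that sheds E-cadherin, was at 55.6, 94.0 and 49.8 CPM in DTC, against 152, 206 and 166 CPM in mCherryLow (-1.43, SE 0.37, limma adjusted p = 0.00929). Fyn, a Src-family kinase, rose by 2.84, and is also a kinase of lymphocytes. It averaged 2.94 CPM in mCherryLow, and of all genes under 5 CPM there 66.9% were called higher. Relative to mCherryHigh, 5 fell, among them Adam10 (-1.81), Ncstn (-1.94) and Ptprf (-1.79), a receptor phosphatase, and 1 rose. In that comparison 7.19% of all genes were called lower and 23% higher, and 18.2% of those averaging at least 50 CPM were called lower. In the 13 genes that promote or oppose the breakdown of beta-catenin, Tnks was the 1 called. Tnks, the tankyrase that marks axin for destruction, differed by -1.47 relative to mCherryLow and -1.65 relative to mCherryHigh. Of all genes 8.87% and 7.19% were called lower in these comparisons.

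Of 14 common targets of beta-catenin and TCF, 7 rose and 1 fell in DTC relative to mCherryLow, beside 34.2% and 8.87% of all genes. Of the 7 that rose, 4 averaged under 5 CPM in mCherryLow, the level at which 66.9% of all genes were called higher. Dkk1, a secreted Wnt inhibitor, was at 15.2, 15.1 and 27.1 CPM in DTC and at 0 in all 6 other libraries. Lgr5, an R-spondin receptor, averaged 78.2 CPM in DTC and 3.95 CPM in mCherryLow (4.13, SE 0.59, limma adjusted p = 0.000545). The TCF-family factors Lef1 and Tcf7, which are also factors of T cells, averaged 62.4 and 64.7 CPM in DTC, against 6.18 and 4.54 CPM in mCherryLow, and both were highest in DTC 3, at 126 and 141 CPM. The sum of 7 lymphocyte markers was 49.7 to 197 CPM in DTC, 5.61 to 12.4 CPM in mCherryHigh and 2.36 to 10.9 CPM in mCherryLow, and its part in these values was not tested. Cd44, a hyaluronan receptor, fell by 1.13 relative to mCherryLow. Relative to mCherryHigh, 6 of 13 rose and 1 fell, beside 23% and 7.19% of all genes. Of these 6, 4 averaged under 5 CPM in mCherryHigh, where 43.3% of all genes were called higher. With quantile normalization the counts were 2 and 1 relative to mCherryLow and 3 and 0 relative to mCherryHigh.

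**Figure D5:**
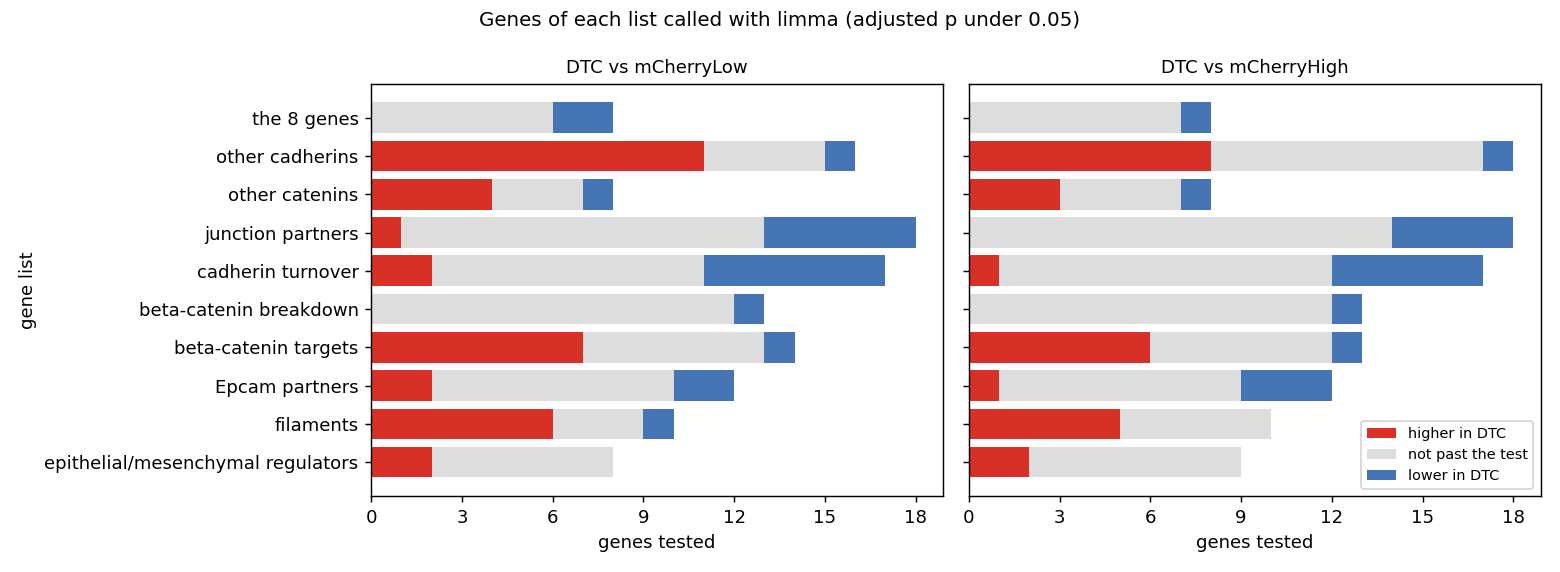
Number of genes of each list tested with limma, with those higher in DTC at the left of each bar, those not past the test in the middle and those lower in DTC at the right. In the 16 other cadherins set against mCherryLow, 11 are higher, and in the 18 junction partners 5 are lower.

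Of 12 partners and proteases of Epcam, 2 rose and 2 fell in DTC relative to mCherryLow, beside 34.2% and 8.87% of all genes. Among genes averaging at least 50 CPM, 22.2% were called lower. Cd9, a tetraspanin of the cell surface, and Adam17, which cleaves Epcam, fell, with differences of -1.77 and -1.48. St14, the protease matriptase, rose by 1.90. It averaged 2.08 CPM in mCherryLow, and of all genes under 5 CPM there 66.9% were called higher. Relative to mCherryHigh, 1 of 12 rose and 3 fell, beside 23% and 7.19% of all genes. Cd9 was at 507, 732 and 619 CPM in DTC, against 2044, 2475 and 2249 CPM in mCherryHigh (-1.88, SE 0.33, limma adjusted p = 0.00327). Cldn1, a claudin, and Bace2, a protease, were the other genes lower than in mCherryHigh, with differences of -1.79 and -1.62, and Fhl2, which binds the cleaved Epcam fragment, was higher by 2.97, at 85.2, 86.7 and 9.74 CPM in DTC.

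Of 10 genes of filaments and the mesenchymal cytoskeleton other than Vim, 6 rose and 1 fell in DTC relative to mCherryLow, beside 34.2% and 8.87% of all genes. With quantile normalization 4 rose and 2 fell. Ina, the neuronal filament internexin, averaged 24.8 CPM in DTC and 0.347 CPM in mCherryLow (4.26, SE 0.55, limma adjusted p = 0.000424). Fscn1, the actin bundler fascin, was at 70.0, 46.8 and 41.1 CPM in DTC, against 5.36, 2.63 and 2.78 CPM in mCherryLow (3.56, SE 0.52, limma adjusted p = 0.000595). Synm and Des, the muscle filaments synemin and desmin, rose by 3.12 and 2.38, and 5 of the 6 that rose averaged under 5 CPM in mCherryLow, where 66.9% of all genes were called higher. Lmna, which encodes the nuclear lamins A and C, was at 872, 1383 and 329 CPM in DTC, against 2538, 2915 and 1974 CPM in mCherryLow (-1.73, SE 0.48, limma adjusted p = 0.0123). Relative to mCherryHigh, 5 of 10 rose and 0 fell, beside 23% and 7.19% of all genes, and with quantile normalization 2 rose. Of the 5 that rose, 3 averaged under 5 CPM in mCherryHigh, where 43.3% of all genes were called higher.

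Regulators of epithelial and mesenchymal genes gave few calls. Of 8 tested against mCherryLow, 2 rose and 0 fell, beside 34.2% and 8.87% of all genes. Both, Esrp1 and Grhl2, are factors of epithelial cells. They averaged 1.63 and 3.28 CPM in mCherryLow, and of all genes under 5 CPM there 66.9% were called higher. With quantile normalization 0 rose and 1 fell. Esrp1, an epithelial splicing factor, was at 12.9, 6.82 and 58.4 CPM in DTC, against 0.975, 2.07 and 1.85 CPM in mCherryLow (2.85, SE 0.75, limma adjusted p = 0.00965). Grhl2, an activator of Cdh1, was at 10.7, 12.7 and 71.4 CPM in DTC, against 1.46, 3.57 and 4.81 CPM in mCherryLow (2.49, SE 0.75, limma adjusted p = 0.0191). Both were highest in DTC 3, the library with the lowest Cdh1, Krt8, Krt18 and Krt19 levels, and without it 1 gene of the list was called. Relative to mCherryHigh, Esrp1 and Ovol1, a repressor of mesenchymal genes, rose by 2.94 and 2.51, and 0 genes were called without DTC 3. Of all genes 23% were called higher. Esrp1 and Ovol1 averaged 1.79 and 0.409 CPM in mCherryHigh, and of all genes under 5 CPM there 43.3% were called higher. The repressors of Cdh1 that were tested did not pass. Snai2 averaged 5.18 CPM in DTC, 7.74 CPM in mCherryHigh and 12.3 CPM in mCherryLow. Snai1 averaged 6.37, 2.01 and 2.78 CPM and Twist2 21.6, 9.34 and 8.22 CPM in the same order. Twist1, at 0 CPM in DTC, was too low to be tested, and Zeb1 was not in the table. Zeb2 was at 141, 146 and 223 CPM in DTC, 71.5, 65.5 and 187 CPM in mCherryHigh and 130, 97.6 and 132 CPM in mCherryLow. Every DTC library was above every mCherryLow library for Zeb2, and mCherryHigh overlapped both.

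Between mCherryHigh and mCherryLow no gene of these lists passed. Grhl2 averaged 14.1 CPM in mCherryHigh and 3.28 CPM in mCherryLow (1.81, SE 0.59, limma adjusted p = 0.486). Axin1, the scaffold of the complex that marks beta-catenin for breakdown, averaged 39.1 CPM in mCherryHigh and 87.2 CPM in mCherryLow (-1.09, SE 0.33, limma adjusted p = 0.484). Jup averaged 260.05 CPM in mCherryHigh and 169 CPM in mCherryLow (0.60, SE 0.24, limma adjusted p = 0.514). Pvrl1, which encodes nectin-1, averaged 7.82 CPM in mCherryHigh and 1.39 CPM in mCherryLow (1.88, SE 0.57, limma adjusted p = 0.484), and Fhl2 5.56 CPM in mCherryHigh and 29.8 CPM in mCherryLow (-2.45, SE 0.62, limma adjusted p = 0.444).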

How the data were processed

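The authors deposited CPM, that is, the count of a gene over the total of its library, for 24012 genes. The 9 columns were all matched to a sample by title (0 unmatched). Per the labels' protocols, RNA was isolated with the RNAqueous-Micro kit and libraries were made with SMART-seq v4 and Nextera XT. Reads were set against mm9, per the submitters' processing notes. For the aligner, the counter, the annotation and the use of strand, the entry is: not given in the sources used here. Each deposited value was a whole multiple of 1 read within 0.01 read in 100% of values, so counts and library totals (643748 to 11861241 reads) were recovered. The smallest column sum was 983174 CPM.

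A gene was tested if 3 or more of the 6 libraries compared reached 1 CPM. The test was limma 3.58.1 (R 4.3.3), two-sided, with trended variance, on log2(CPM + 1), and p was adjusted after Benjamini-Hochberg over all genes tested, with calls at 0.05. A difference on that scale understates the change of low genes. The procedure was checked on simulated counts. The members and lists were chosen with earlier results of these data known. Named from each list were up to 4 genes with the smallest p among those called in a comparison, or up to 2 where none was, besides all 8 members. A few further genes were named for their role after their values were seen. The genes not in the table under the symbols searched, among them Zeb1, were not analysed here. Transcript lengths and 50-base windows came from GENCODE transcripts of GRCm38 and promoter sequences from RefSeq, so only the promoters have coordinates here. Poisson intervals cover counting error only. Alternatives were other pseudocounts, filters, scalings and variance settings, a fit of all 9 libraries, the replicate number as a block, the code series as a term, thinning, count tests on recovered reads (DESeq2 1.42.0, edgeR 4.0.16), and leaving out each library. One allele of the genotype and some genes of the lists are not reported here.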

Additional observations from a re-analysis of the deposited data

How the results depend on the processing

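With quantile normalization, genes called became 4300 for DTC with mCherryLow and 3150 for DTC with mCherryHigh, against 8064 and 5949, and 0 members were called against mCherryLow. It turned Cdh3 to -0.16 and Vim to 0.14 against mCherryLow, and Cdh3 to -0.021 against mCherryHigh. The share of calls that were higher in DTC against mCherryLow was 79.4%, and 65.2% with median-of-ratios, 63.6% with TMM, 59.5% in edgeR and 52.7% with quantile normalization. Against mCherryHigh the same shares were 76.2%, 67.8%, 64.3%, 59.6% and 51.3%. The median over all genes moved from 0.59 to 0.30 with median-of-ratios, 0.26 with TMM and -0.14 with quantile normalization against mCherryLow.

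Against mCherryHigh, 3 members were called with median-of-ratios, TMM and array weights and in edgeR and DESeq2, against 1, and array weights called 9545 genes. Vim turned to -0.041 with TMM and -0.12 in edgeR. Leaving out a library gave 6119 to 8255 genes and 1 to 3 members against mCherryLow, and 3217 to 6751 genes and 1 to 3 members against mCherryHigh. The fewest genes came without DTC 1 against mCherryHigh (3217), with 3547, 3854 and 3916 without mCherryHigh 5, mCherryHigh 6 and DTC 3.

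For mCherryHigh with mCherryLow, DESeq2 called 132 genes and the other alternatives 0. Cdh2 turned to 0.27 with the code series as a term and ran from -0.51 to 0.38 when a library was left out. Cdh3 turned to -0.18 with quantile normalization, -0.012 with median-of-ratios, -0.020 with TMM, -0.25 with array weights, -0.51 in edgeR and -0.27 in DESeq2, and ran from -0.48 to 0.59 when a library was left out. The causes were not tested. With the replicate number as a block, 0 genes were called, with 1342 at an unadjusted p under 0.05. The deviations of same-numbered libraries from their group means had correlations of -0.20, -0.02 and 0.27. Those of other pairs ran from -0.44 to 0.33. With 3 libraries in each group the deviations depend on each other, so these values cannot decide whether the numbers pair the libraries. DTC shares only 1 number with the other groups, so no paired fit was made there. Of the list genes named as called, those that lost the call without 1 library or more were Cd44, Cdh16, Ctnnbip1, Grhl2, Pkp4, St14, Tnks and Vcl against mCherryLow, and Bace2, Cdh6, Cldn1, Esrp1, Fhl2, Iqgap1, Jup, Ovol1, Ptprf, Pvrl2, Tnks and Zyx against mCherryHigh. At this depth, the few reads of Cdh3 and Epcam in the shallow libraries limit their precision.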
